A study of Mus musculus with 13 samples.

Results

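Acetylation of histone H3 at lysine 27 (H3K27ac) was mapped by chromatin immunoprecipitation and sequencing (ChIP-seq) while mouse embryonic fibroblasts (MEFs) were being reprogrammed, and the regions described here carried a called H3K27ac interval during reprogramming but none in MEFs or in embryonic stem cells (ESCs). They were found by merging all intervals of the 6 OSKM H3K27ac lists that overlapped by 1 bp, keeping merged regions held by 2 or more lists, and keeping of these the regions with no ESC or MEF H3K27ac interval centre within 1 kb of the region centre. This left 2658 regions, called transient regions below, of 17720 merged regions in 2 or more lists and of 34224 merged regions in all. The regions were thus chosen by the presence or absence of intervals in these 8 lists, and their presence in the OSKM lists is given as a description. "Transient" is used here only in the sense of that rule, since the OSKM lists end at day 13.

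One arm held MEFs of strain C57BL/6J-OG2 infected with virus supernatants for OCT4, SOX2, KLF4 and c-MYC (OSKM) together with HDAC3-YF, a form of HDAC3 that cannot deacetylate, and was taken at days 5, 9 and 13. The control arm held MEFs of the same strain, with the same 4 factors and days, that received a FLAG control. The labels describe the OSKM cells as presumed intermediates, and name no sort. The lists that define absence came from uninfected MEFs of that strain and from ESCs of strain C57BL/6J. The co-repressors NCoR and SMRT were mapped in OSKM cultures at day 9 and in ESCs. No group had a second library among the 13, so there was no spread between replicates and no test between conditions. An ESC input was not analysed here. The 95% intervals below treat regions as independent and cover counting error only.

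H3K27ac is placed by the acetyltransferases p300 and CBP and marks active promoters and enhancers, the distant elements that raise transcription of a gene. Histone deacetylases such as HDAC3 remove it, and HDAC3 works inside complexes built on NCoR or SMRT, which also activate it. In reprogramming, fibroblast enhancers are lost and ESC enhancers gained over days, in cultures where few cells complete the passage and others take up different states. A culture holds all of these cells, so fewer cells with a mark and less of the mark per cell cannot be told apart.

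Most transient regions lay far from promoters, and the few at start sites are described first. Of 2570 transient regions on the chromosomes covered by the RefSeq promoter table of GRCm38.p6 (coordinates as in mm10), 102 overlapped a window of 300 bases, from 250 before to 50 after a start site. Printed here are the windows of the 3 protein-coding genes overlapped by a transient region that all 6 OSKM lists held, and that of Lenep, in 5 lists, as an example with matches to 3 motifs. The genes are Dll1 (chr17:15375774-15376073, minus strand), a ligand of Notch receptors, Lgals7 (chr7:28864136-28864435, plus strand), a galectin of stratified epithelia, Trak1 (chr9:121366708-121367007, plus strand), an adaptor for mitochondrial transport, and Lenep (chr3:89402601-89402900, minus strand), named for its expression in lens epithelium. They were chosen after their values were seen. The gene's own strand is shown 5′ to 3′, and capitals mark motif matches on either strand.
Dll1: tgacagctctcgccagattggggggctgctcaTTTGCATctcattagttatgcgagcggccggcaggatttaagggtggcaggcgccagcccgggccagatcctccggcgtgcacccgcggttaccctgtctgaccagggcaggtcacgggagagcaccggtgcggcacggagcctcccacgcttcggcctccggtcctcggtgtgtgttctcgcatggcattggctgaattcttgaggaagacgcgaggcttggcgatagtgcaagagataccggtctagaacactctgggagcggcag
Lgals7: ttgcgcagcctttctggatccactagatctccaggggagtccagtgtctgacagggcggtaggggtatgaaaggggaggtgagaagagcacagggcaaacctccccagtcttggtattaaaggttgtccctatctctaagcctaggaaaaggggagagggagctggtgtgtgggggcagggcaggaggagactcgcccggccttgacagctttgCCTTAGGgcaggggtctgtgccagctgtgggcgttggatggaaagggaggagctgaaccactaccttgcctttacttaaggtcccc
Trak1: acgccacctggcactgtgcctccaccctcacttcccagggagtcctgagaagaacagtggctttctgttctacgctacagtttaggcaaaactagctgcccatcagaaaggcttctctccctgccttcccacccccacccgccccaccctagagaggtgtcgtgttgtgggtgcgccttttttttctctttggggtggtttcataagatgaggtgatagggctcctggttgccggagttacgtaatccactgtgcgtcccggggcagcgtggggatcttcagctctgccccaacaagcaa
Lenep: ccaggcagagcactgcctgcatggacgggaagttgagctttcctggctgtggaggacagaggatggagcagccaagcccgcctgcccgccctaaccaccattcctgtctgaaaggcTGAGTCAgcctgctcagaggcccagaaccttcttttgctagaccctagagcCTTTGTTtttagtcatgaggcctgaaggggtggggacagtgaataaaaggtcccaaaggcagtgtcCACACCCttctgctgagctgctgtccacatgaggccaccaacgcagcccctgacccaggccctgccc

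The Dll1 window holds an octamer match (ATGCAAA, bound by POU factors such as OCT4), and the Lgals7 window holds an AP-2 match (CCTNAGG). In the Lenep window the capitals mark an AP-1 match (TGANTCA), a SOX match (AACAAAG) and a KLF match (GGGTGTG), in the order in which they stand. None of the 10 motifs searched occurred in the Trak1 window. Over the 115 promoter windows that transient regions overlapped, which belong to 106 gene symbols, 13.9% (95% interval 8.75 to 21.4) held the KLF letters, against 11.7% (7.59 to 17.5) at regions with an ESC interval only, 8.70% with a MEF interval only, 7.32% with both, and 7.95% of all 32851 windows in the table. The SOX letters were in 8.70% (4.79 to 15.3), against 9.20% with ESC only, 2.45% with MEF only, 2.89% with both and 5.85% of all windows. The transient KLF interval thus overlapped that of the ESC-only windows and also that of the MEF-only windows (6.23 to 12.0). The transient SOX interval overlapped that of the ESC-only windows and held the share of all windows. Its lower limit of 4.79 stood just above the interval of the MEF-only windows (1.29 to 4.58). Windows of the same gene can overlap, and those of Gm30893 hold the same SOX match, so no separation is read from this. The octamer letters were in 4.35%, against 5.52%, 5.16% and 2.21% in the same 3 classes and 4.63% of all windows. AP-1 letters were in 5.22%, against 7.36%, 8.42% and 3.47% in those classes and 7.81% of all windows. The ETS letters (CCGGAAG) were in 3.48% (1.36 to 8.60) of the transient windows, against 7.98% with ESC only, 7.61% with MEF only, 24.6% (23.6 to 25.7) with both and 8.86% of all windows. The E-box CACGTG, which MYC can bind, was in 2.61% (0.891 to 7.39), against 8.59%, 7.61% and 10.6% in the 3 classes and 7.15% of all windows. The AP-2 letters were in 13.9%, against 11.0%, 9.51% and 11.3% in the 3 classes and 11.0% of all windows. The TEAD letters GGAATGT were in 4.35%, against 3.07%, 3.53% and 1.957% in the classes and 3.85% of all windows. The RUNX letters TGTGGTT were in 5.22%, against 3.07%, 3.804% and 2.92% in the classes and 5.27% of all windows. The letters AGATAAG, known from GATA factors, were in 4.35% (1.87 to 9.78), against 0.613% (0.108 to 3.39), 0.815% (0.278 to 2.37) and 1.10% in the classes and 3.04% of all windows. Matches were counted on both strands, no motif contains another, and matches of different motifs may overlap at their edges. A match describes letters and is no binding site.

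The promoters reached by transient regions were poorer in CpG than those of OSKM regions with an ESC or MEF interval. Their median ratio of observed to expected CpG was 0.443, against 0.718 at OSKM regions with an ESC interval only, 0.619 at those with a MEF interval only and 0.854 at those with both. All windows of the table had a median of 0.384. Median GC content was 58.7%, against 62.7%, 59.0% and 64.7% in the same 3 classes and 52.7% over all windows.

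Those 3 classes, cut by the same rule from the regions in 2 or more OSKM lists, are the comparison used throughout. An ESC interval alone lay within 1 kb of 1415 regions, a MEF interval alone of 2636, and both of 11011. The lists held 14251 to 16944 intervals in OSKM cultures, and their read depth is unknown. Every interval was 200 bp wide, so width says nothing about a domain. The deposited score, on a scale that is not stated, reached its ceiling of 200 in 1.67% and 2.11% of day 13 intervals but in 9.06% to 11.9% of those at days 5 and 9, so the day 13 lists stand apart. ESC and MEF lists went with their labels: 5 ESC markers had 9 to 12 ESC and 0 to 2 MEF intervals in the gene with 20 kb on each side, and 5 MEF markers had 0 or 1 ESC and 3 to 12 MEF intervals.

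**Figure D1:**
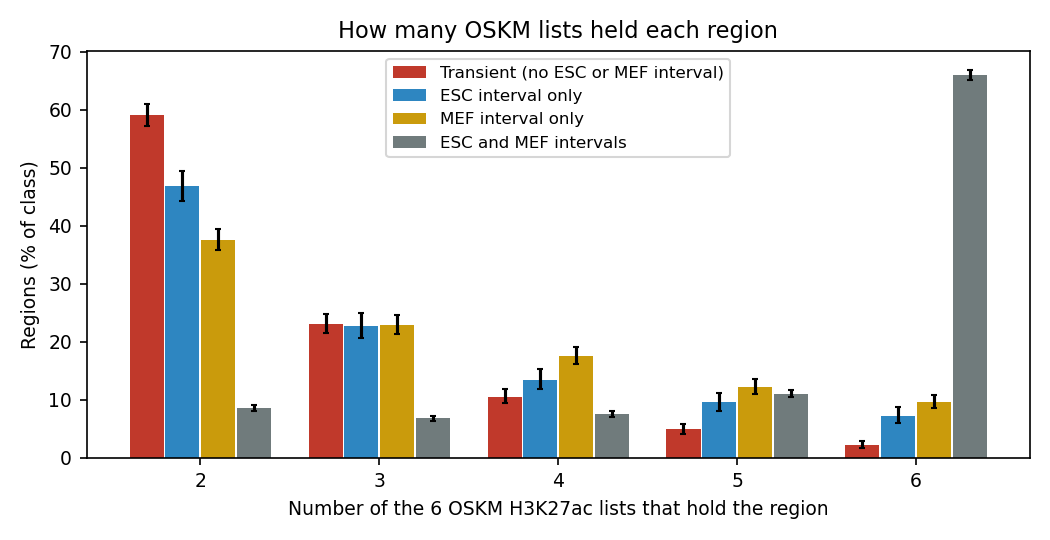
Bars give the percentage of each region class (y axis) held by 2 to 6 of the OSKM H3K27ac lists (x axis), with 95% Wilson intervals. Transient regions stand mostly at 2 lists (59.1%) and rarely at 6 (2.26%), while regions with both ESC and MEF intervals stand mostly at 6 (66.0%).

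Transient regions were seldom stable across the 6 lists. Exactly 2 lists held 1572 of them, which is 59.1%, beside 23.6% of all regions in 2 or more lists. All 6 lists held 60, or 2.26%, beside 43.3% of all such regions. The numbers in 3, 4 and 5 lists were 614, 281 and 131. The share in all 6 lists was 7.28% with an ESC interval only and 9.67% with a MEF interval only. Lists chose the regions, so these shares are a description.

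Their scores were low. Over days 5, 9 and 13 the median score of transient regions was 13.7, 11.2 and 9.14 in the HDAC3-YF lists, against 12.2, 11.3 and 9.89 in the FLAG lists. The lowest score of a list was 6.68 to 6.72 in all 6. The median region stood at the 23.9th to 34.6th percentile of its list, against the 66.7th to 69.7th for regions with both ESC and MEF intervals. Regions with an ESC interval only stood at the 30.1st to 41.8th percentile and those with a MEF interval only at the 29.3rd to 38.9th. Many transient regions thus stood near the calling threshold of a list, and its part in their absence from other lists was not tested.

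The distance to acetylation in the end states varied widely. The nearest ESC or MEF interval centre was 13.3 kb from the median transient region. It lay within 5 kb for 586 regions (22.0%), beyond 20 kb for 1013 (38.1%) and beyond 100 kb for 218 (8.20%). A MEF centre was the nearer for 1593 and an ESC centre for 1065. Just inside the rule's distance, 102 regions lay 1 to 1.5 kb from the nearest centre and were held by 2.66 lists on average; just outside it, 450 regions lay 0.5 to 1 kb away and were held by 2.78 lists. Another transient region lay within 1 kb of 261 regions (9.82%) and within 10 kb of 511 (19.2%), so the regions are not all independent. Chromosome X held 24 (0.903%), against 0.989% of regions with an ESC interval only, 1.06% with a MEF interval only and 2.59% with both.

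Transient regions were concentrated early. A day 5 list held 2103 of them (79.1%), a day 9 list 1914 (72.0%) and a day 13 list 1093 (41.1%). The commonest course was presence at days 5 and 9 without day 13, with 1032 regions (38.8%). Day 5 alone held 432, day 9 alone 101 and day 13 alone 103, while 351 were present at days 9 and 13, 209 at days 5 and 13, and 430 on all 3 days. For regions with a MEF interval only, 67.2% were in a day 13 list, and for those with an ESC interval only 61.3%. All day 13 values rest on the lists with the lowest scores, and the part of that in the fall towards day 13 was not tested.

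**Figure D2:**
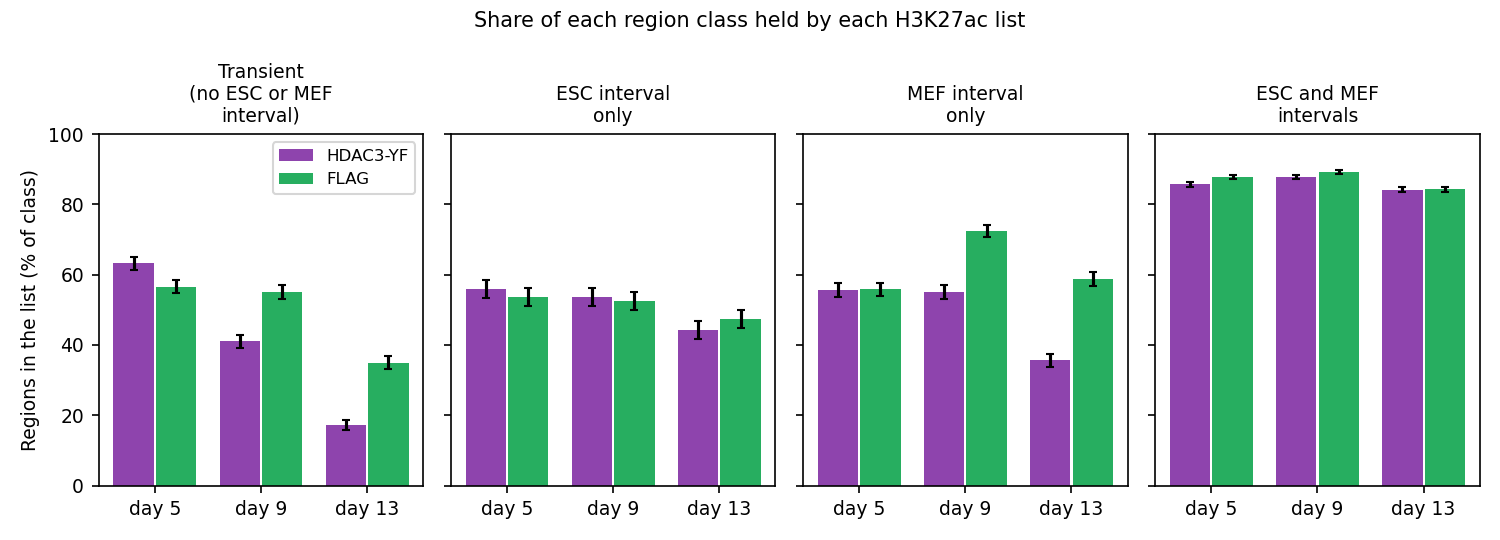
Bars give the percentage of each region class (y axis, 0 to 100) held by each list, with HDAC3-YF left of FLAG at days 5, 9 and 13 (x axis) and 95% Wilson intervals. In transient regions HDAC3-YF stands above FLAG at day 5 (63.2% and 56.5%) and below it at day 9 (41.0% and 55.1%) and day 13 (17.2% and 35.0%).

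The question put by the HDAC3-YF cultures is whether acetylation at these regions differs when a dead mutant of the deacetylase of the co-repressor complexes is added to cells that keep their own Hdac3 gene. More transient regions were held by the HDAC3-YF list than by the FLAG list at day 5, and fewer at days 9 and 13. At day 5 the HDAC3-YF list held 63.2% (61.4 to 65.1) and the FLAG list 56.5% (54.7 to 58.4). At day 9 the shares were 41.0% (39.2 to 42.9) in HDAC3-YF and 55.1% (53.2 to 57.0) in FLAG. At day 13 they were 17.2% (15.8 to 18.7) in HDAC3-YF and 35.0% (33.2 to 36.8) in FLAG. HDAC3-YF minus FLAG was therefore 6.70 percentage points at day 5 (interval 4.35 to 9.04), -14.0 at day 9 (interval -16.6 to -11.5), and -17.8 at day 13 (interval -19.7 to -15.8).

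Counted by region, HDAC3-YF without FLAG held 600 transient regions at day 5 (22.6%, beside 11% of all regions in 2 or more lists), and FLAG without HDAC3-YF held 422 (15.9%, beside 11.2%). At day 9 the HDAC3-YF list alone held 450 (16.9%, beside 9.99%) and the FLAG list alone 823 (31.0%, beside 15.5%). At day 13 these numbers were 164 for HDAC3-YF (6.17%, beside 8.14%) and 636 for FLAG (23.9%, beside 14.6%). Since these lists chose the regions, nothing is read from the counts themselves.

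The same comparison was therefore made on regions that the compared day had no part in choosing, by applying the rule to the 4 lists of the other 2 days. At day 5, HDAC3-YF held 42.0% and FLAG 38.3% of 1218 regions, a difference of 3.61 points (0.617 to 6.61). At day 9, HDAC3-YF held 30.8% and FLAG 41.2% of 1537 regions, a difference of -10.5 points (-13.2 to -7.73). At day 13, HDAC3-YF held 8.41% and FLAG 21.5% of 2069 regions, a difference of -13.1 points (-14.9 to -11.3). The directions were those of the full set on each day. Each interval left out 0, but it counts regions and not libraries, with 1 library per arm. List lengths were not made equal in this comparison. At day 13, HDAC3-YF held 59 of these regions that FLAG did not, and FLAG held 330 that HDAC3-YF did not. MEF-only regions chosen in the same way differed by -0.0523, -13.8 and -19.4 points over the 3 days, and ESC-only ones by -1.99, -0.839 and -6.03.

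The lists of a day differ in length, and their lengths move with these differences. The HDAC3-YF list held 16944 intervals at day 5, 15241 at day 9 and 14251 at day 13, against 15645, 16428 and 15394 in FLAG. With the same number of highest-scoring intervals taken from each list, the difference was 2.15 points (-0.436 to 4.75) at day 5, so the day 5 excess could not be told from none there. The day 9 value was then -10.1 (-13.0 to -7.13), and the day 13 value -17.0 (-19.3 to -14.7). Intervals of fixed width can also stand side by side in different lists, and 3.57% to 10.5% of transient regions had no overlapping interval in a given list but an interval centre of it within 1 kb. With presence read as a centre within 1 kb, day 5 gave 7.94 points (5.88 to 9.99), day 9 gave -13.2 (-15.5 to -10.8) and day 13 gave -20.8 (-22.8 to -18.8).

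Transient regions did not stand alone in this. In regions with a MEF interval only, HDAC3-YF minus FLAG was -0.114 points (-2.45 to 2.23) at day 5, and reached -17.4 (-19.8 to -15.0) by day 9 and -23.1 (-25.4 to -20.9) by day 13. The difference of transient regions exceeded that of the MEF-only class by 6.81 points (3.50 to 10.1) at day 5 and by 5.35 (2.35 to 8.34) at day 13, while at day 9 the excess of 3.38 had an interval of -0.147 to 6.91. Regions with an ESC interval only differed by 2.47, 1.06 and -3.18 points at days 5, 9 and 13, and the transient value minus theirs was 4.22 points (0.389 to 8.06) at day 5. On the later days the transient value minus theirs was -15.1 (-19.5 to -10.7) and -14.6 (-18.1 to -11.1). Regions with both intervals differed by -2.23, -1.38 and -0.0908 points. At days 9 and 13 the transient regions therefore stood between the ESC-only and the MEF-only classes and nearer the MEF-only one. In all 3 comparisons the same 6 OSKM lists chose the regions, with 1 library per arm, so these gaps are a description. On regions chosen on the other 2 days, day 5 gave 3.61 points in the transient class and -0.0523 in MEF-only regions.

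Where both arms of a day held a transient region, its place in the list moved the same way. At day 5, 747 of 1081 such regions stood at a higher percentile in the HDAC3-YF list and 334 in the FLAG list, with a median difference of 8.20 percentile points. At day 9, 246 of 641 stood higher in HDAC3-YF and 395 in FLAG, with a median difference of -5.20. At day 13, 107 of 293 stood higher in HDAC3-YF and 186 in FLAG, with a median difference of -7.39. The ESC-only class had medians of 9.09, -0.737 and -1.56 at days 5, 9 and 13, the MEF-only class 4.77, -7.24 and -14.7, and the class with both intervals 2.66, -0.136 and -0.436. These percentiles come from the lists that chose the regions, and they depend on list length. HDAC3-YF had the longer list at day 5 and FLAG at days 9 and 13, in the directions of the transient medians. The part of list length in these differences was not tested.

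Few regions belonged to an arm on every day. All 3 HDAC3-YF lists and no FLAG list held 4 transient regions (0.150%, beside 0.169% of all regions in 2 or more lists), and all 3 FLAG lists and no HDAC3-YF list held 35 (1.32%, beside 0.688%). With an interval centre of the other arm within 1 kb counted as presence, 1 and 25 remained. The 4 lay in Pip5k1c, which makes the lipid PIP2, in Rara, and nearest to Entpd6 (0.533 kb away) and Kiz (32.0 kb away). Rara encodes retinoic acid receptor alpha, a receptor that recruits NCoR and SMRT. The Rara region (chr11:98933046-98933303, inside the gene) scored 36.4, 18.6 and 7.39 at days 5, 9 and 13 in HDAC3-YF and had no overlapping FLAG interval. The Pip5k1c region (chr10:81297899-81298222) scored 17.5, 42.7 and 9.51. FLAG regions with a high lowest score lay in Ppp2r1b, a scaffold subunit of phosphatase 2A, in Anks1, in Msi2, which encodes an RNA-binding protein, and nearest to Ankrd46. The region nearest Ankrd46 (chr15:36400043-36400458) lay 77.4 kb from that gene. It had no overlapping HDAC3-YF interval and scored 30.1, 34.8 and 19.6 in FLAG. The Ppp2r1b region (chr9:50885073-50885324) scored 33.9, 59.3 and 11.7. A MEF interval centre lay 1.02 kb from the Ppp2r1b region, close to the rule's limit of 1 kb.

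**Figure D3:**
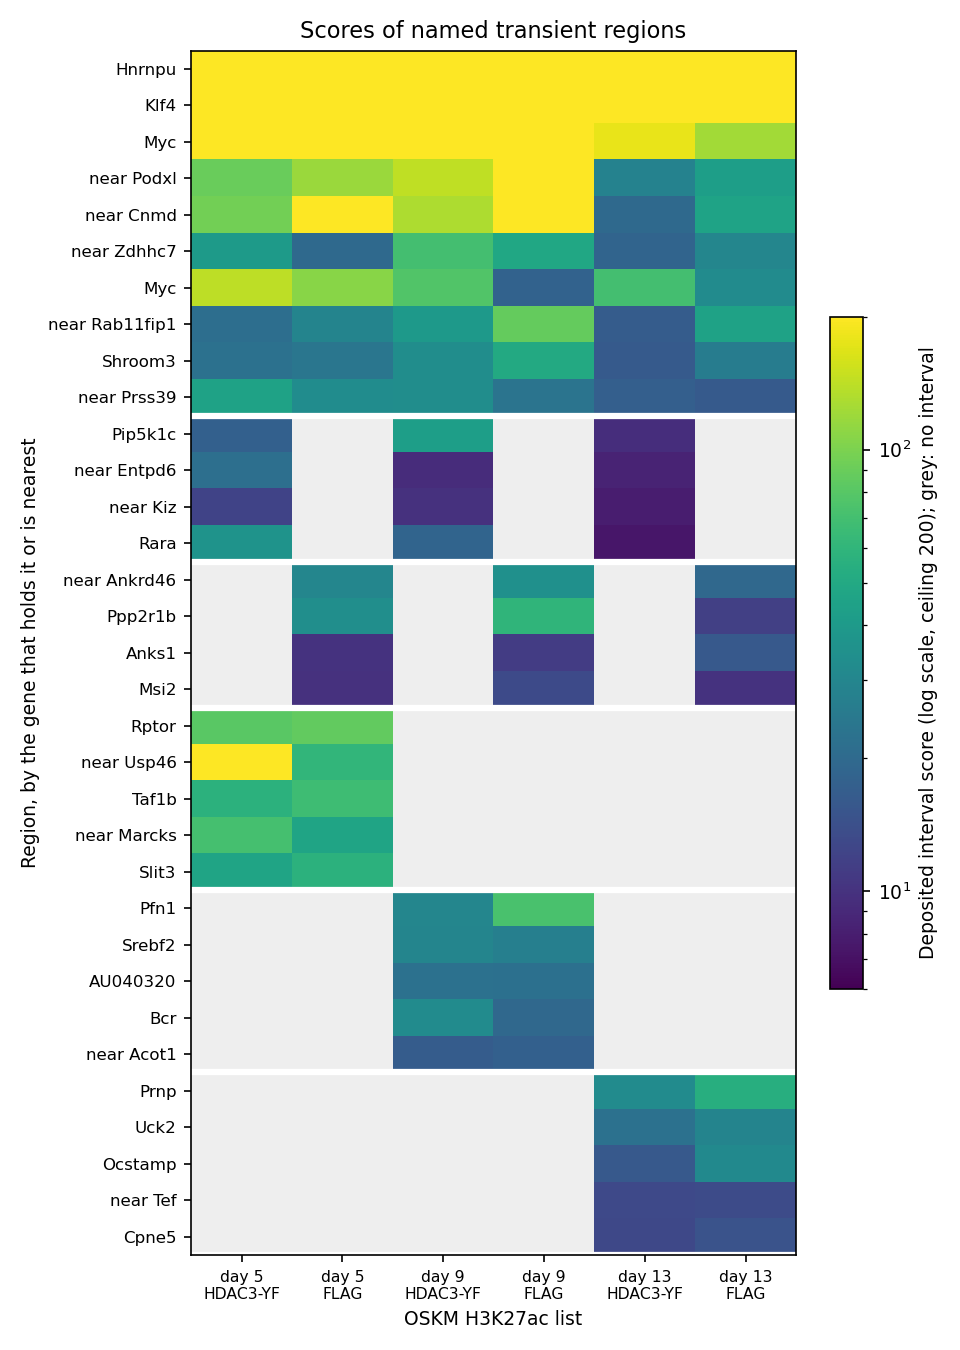
Each row is a transient region named by the gene that holds it or is nearest, each column an OSKM H3K27ac list with HDAC3-YF left of FLAG, and colour gives the deposited score on a log scale with a ceiling of 200 (grey: no interval). From the top are the 10 regions in all 6 lists with the highest lowest score, named ones in 1 arm only, and those in both arms of day 5, 9 or 13 only; Hnrnpu and Klf4 are at 200 throughout.

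The strongest of the 60 regions held by every list were at genes that the cultures carry as introduced copies, and at Hnrnpu. The Klf4 region (chr4:55530385-55530633, inside the gene) scored 200 in all 6 lists, with the nearest ESC centre 2.25 kb and the nearest MEF centre 2.19 kb away. One region in Myc (chr15:61987842-61988159) scored 200 in both arms on the first 2 days, and 179 in HDAC3-YF and 123 in FLAG at day 13. A second Myc region (chr15:61989432-61989741) scored 140, 77.3 and 70.3 over the 3 days in HDAC3-YF, against 107, 17.98 and 32.8 in FLAG. The Myc gene itself held a MEF interval with a score of 175, with its centre 1.55 kb from the first of these regions. KLF4 and c-MYC are introduced factors, and reads from the introduced copy and from the gene cannot be told apart in these lists. The introduced Sox2 had an interval scoring 200 in every OSKM list and no transient region, and a MEF interval scoring 7.09 lay in the gene.

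Hnrnpu, which encodes a nuclear RNA-binding protein, is not among the introduced factors. Its region (chr1:178337112-178337405, inside the gene) scored 200 in all 6 OSKM lists, and no ESC or MEF H3K27ac interval lay in the gene. The nearest ESC and MEF centres were both 18.5 kb away. A listed start site lay 0.557 kb away, and NCoR and SMRT intervals lay within 1 kb both at day 9 and in ESCs. Of the 60 regions, 57 had a lowest score under 30; the others were those at Hnrnpu and Klf4 and the first Myc region.

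The other 6 of the 10 leading regions were at genes that were not introduced, and in HDAC3-YF each had its lowest score at day 13. The whole HDAC3-YF lists had median scores of 22.5, 25.1 and 16.45 at days 5, 9 and 13, and the FLAG lists 26.4, 24.2 and 15.7. The part of these list differences in the scores below was not tested. The region nearest Podxl (chr6:31596815-31597364), a sialomucin of the cell surface, lay 33.2 kb from that gene. It scored 89.7, 144 and 28.3 over days 5, 9 and 13 in HDAC3-YF, against 117, 200 and 42.9 in FLAG. The region nearest Cnmd (chr14:79676852-79677308), a cartilage glycoprotein, scored 94.6, 130 and 20.0 in HDAC3-YF, against 200, 200 and 45.8 in FLAG. FLAG scored above HDAC3-YF on all 3 days at both. The same held at the region inside Shroom3 (chr5:92905360-92905955), which shapes the apical side of epithelial cells, with 22.1, 33.3 and 16.3 in HDAC3-YF, against 23.8, 50.6 and 26.2 in FLAG, and at the region near Rab11fip1, a protein of recycling endosomes. The regions nearest Zdhhc7, a palmitoyltransferase, and Prss39, a serine protease, did not show that order: at day 5 they scored 40.8 and 45.4 in HDAC3-YF, against 19.9 and 32.9 in FLAG.

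Regions of a day were named by their lowest score as well. Of the 432 in both lists of day 5 and no other, leading ones lay in Rptor, a subunit of the kinase complex mTORC1, and in Taf1b, a factor of RNA polymerase I. The other leading ones lay in Slit3, a guidance ligand, and far from their nearest protein-coding genes. These were Usp46, a deubiquitinase, at 86.0 kb, and Marcks, a substrate of protein kinase C, at 113 kb. The region nearest Usp46 overlapped the promoter window of the non-coding RNA gene 1700019F05Rik. The Rptor region (chr11:119793507-119793775) scored 81.8 in HDAC3-YF and 85.7 in FLAG, and had NCoR and SMRT intervals within 1 kb in ESCs. Of the 101 of day 9, the leading ones lay in Srebf2, which drives cholesterol synthesis genes, in Bcr, in AU040320, at Pfn1 and Eno3, and nearest Acot1, with scores of 16.6 to 32.4 in HDAC3-YF and 17.5 to 73.0 in FLAG. Of the 103 of day 13, they lay in Prnp, which encodes the prion protein, in Uck2, a nucleoside kinase, in Ocstamp and Cpne5, and nearest Tef, with 12.8 to 32.4 in HDAC3-YF and 13.3 to 54.0 in FLAG. The 5 of day 5 scored 46.6 to 200 in HDAC3-YF and 46.8 to 85.7 in FLAG, overlapping the day 13 range in FLAG but not in HDAC3-YF. A MEF centre lay 1.12 kb from the region at Pfn1 and 1.09 kb from that in Uck2, close to the rule's limit.

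**Figure D4:**
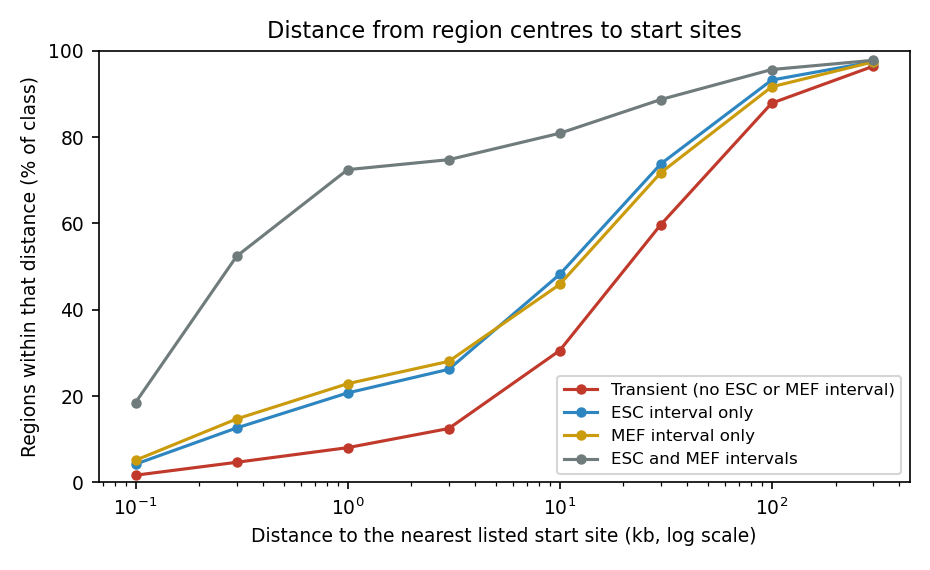
Lines give the cumulative percentage of each region class (y axis, 0 to 100) within a distance of the nearest start site of the RefSeq promoter table (x axis, kb, log scale). Within 1 kb lay 8.05% of transient regions, against 20.7%, 22.9% and 72.5% of the ESC-only, MEF-only and shared classes.

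Transient regions were placed away from promoters, more so than regions acetylated in ESCs or MEFs. A gene end lay within 1 kb of 203 (7.64%, 6.69 to 8.71; beside 51.3% of all regions in 2 or more lists), against 21.5% of regions with an ESC interval only, 20.8% with a MEF interval only and 72.9% with both. The difference, transient minus the other class, was -13.8 points (-16.3 to -11.5) for ESC only and -13.2 (-15.0 to -11.3) for MEF only, by Newcombe intervals. It was there among regions in exactly 2 lists too, with 7.44% of transient regions, against 22.3%, 15.5% and 46.5% in the ESC-only, MEF-only and shared classes. Among regions in all 6 lists the transient share was 11.7% (5.77 to 22.2), against 17.5% (11.3 to 25.9) in ESC only, 36.1% in MEF only and 80.8% in both, so the gap in gene ends to the ESC-only class could not be seen there. A listed start site lay within 1 kb of 8.05% (beside 51.4% of all regions), against 20.7%, 22.9% and 72.5%. For regions in all 6 lists the start-site share was 13.6% (7.03 to 24.5), against 27.3% (19.5 to 36.8) with an ESC interval only. The median distance to a listed start site was 21.8 kb, against 11.0, 11.9 and 0.283 kb, and 67.8% of transient regions lay over 10 kb from any gene end (beside 29.9% of all regions). In all 6 lists the share over 10 kb away was 46.7% (34.6 to 59.1), against 45.6% (36.3 to 55.2) with an ESC interval only. Inside a gene body lay 65.3% of transient regions (beside 77.2% of all regions), against 64.5% with an ESC interval only (difference 0.822 points, -2.24 to 3.92), 65.9% with a MEF interval only (-0.621, -3.18 to 1.94) and 84.4% with both (-19.1, -21.0 to -17.2). The gene table gives no exons, so introns and exons were not separated.

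Of the 203 transient regions near a gene end, 142 were in a day 13 list. That was 13.0% of the 1093 transient regions in a day 13 list, against 3.90% of the 1565 without one, a difference of 9.09 points (6.94 to 11.4). Regions of day 13 only had 19.4% (12.9 to 28.1), those of days 9 and 13 16.0% (12.5 to 20.2), and those of days 5 and 9 3.59% (2.61 to 4.90). The same direction held in the other classes, with differences of 18.7 points in ESC only, 11.5 in MEF only and 25.2 in both. Without the day 13 lists the share of transient regions near a gene end was 5.36%.

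**Figure D5:**
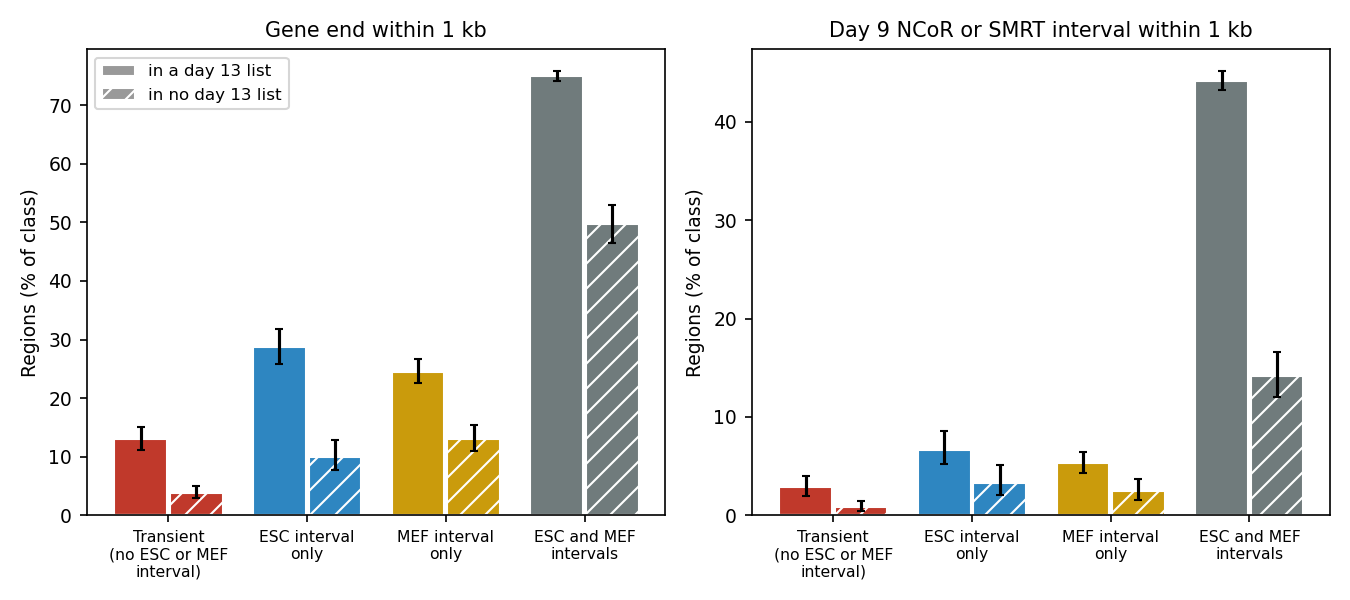
Bars give the percentage of each region class (y axes, scales differ) with a gene end (left) or a day 9 NCoR or SMRT interval (right) within 1 kb, for regions in a day 13 list (plain) and in none (hatched), with 95% Wilson intervals. Transient regions are lowest in both, at 13.0% and 3.90% for gene ends and 2.84% and 0.831% for co-repressors.

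NCoR and SMRT intervals rarely lay at transient regions. A day 9 NCoR or SMRT interval lay within 1 kb of 44 (1.66%, 1.24 to 2.21; beside 27.3% of all regions in 2 or more lists), against 5.37% with an ESC interval only, 4.36% with a MEF interval only and 41.8% with both. The differences, transient minus the other class, were -3.72 points (-5.08 to -2.52), -2.71 (-3.65 to -1.80) and -40.1 (-41.1 to -39.0). Away from gene ends the order was the same, with 1.26% (0.891 to 1.79) of transient regions, against 4.14%, 2.35% and 25.8%. In exactly 2 lists the shares were 1.02%, against 3.92%, 3.13% and 13.0%. Among the 60 regions in all 6 lists the share was 11.7% (5.77 to 22.2), against 12.6% with an ESC interval only, 11.4% with a MEF interval only and 53.8% with both, so the ESC-only and MEF-only classes could not be told from the transient regions there. The share of regions with a co-repressor interval moved with the number of lists in every class.

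In ESCs, where by the rule these regions carried no H3K27ac interval, a co-repressor interval lay within 1 kb of 43 (1.62%, 1.20 to 2.17; beside 17% of all regions), against 8.62%, 2.77% and 25.2% in the ESC-only, MEF-only and shared classes. Away from gene ends the shares were 1.43% (1.03 to 1.98) of transient regions, against 5.49%, 1.48% (1.05 to 2.10) and 15.4%, so the gap to the MEF-only class was not seen there. Chromosome 8 held 14.05% of the ESC NCoR intervals and 13.9% of the ESC SMRT intervals but 5.62% and 5.80% of the day 9 ones, and none of the 43 regions was on it.

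Both NCoR and SMRT lay within 1 kb at day 9 for 28 transient regions (1.05%, beside 20.8% of all regions), and 6 of these were among the 60 in all 6 lists. The 5 named by list number and score were Hnrnpu, Klf4, both Myc regions and a region in Sfi1, a centrosomal protein. The Sfi1 region (chr11:3199126-3199553) scored 20.3, 7.32 and 31.2 over the 3 days in HDAC3-YF, against 77.6, 39.5 and 35.5 in FLAG, and had both co-repressors in ESCs as well. An ESC H3K27ac centre lay 1.05 kb from the Sfi1 region, close to the rule's limit of 1 kb. The sixth lay in Copg2, a coat protein of vesicles, again with both co-repressors in ESCs. Of the 6, 3 are at introduced factors. No annotation of repeats or of regions prone to false calls was used, and its part in these calls was not tested.

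Some genes held several transient regions. Gene length varies widely among those named, and its part in the counts was not tested. Of 21887 protein-coding genes, 2291 (10.5%) had a transient region in the body with 20 kb on each side, and 324 of them had 2 and 99 had 3. Zbtb20 (chr16:42875689-43634392), a zinc-finger repressor, had 11. In HDAC3-YF 10, 2 and 0 of these were held at days 5, 9 and 13, against 8, 8 and 2 in FLAG. The 11 scored up to 42.8 in HDAC3-YF and up to 53.6 in FLAG at day 5, and at day 9 the highest FLAG score was 22.3. Zbtb7c (chr18:75820178-76148564), of the same family of zinc-finger proteins, had 8, of which HDAC3-YF held 4, 8 and 1 and FLAG 5, 7 and 6. The uncharacterised 2900026A02Rik also had 8, of which HDAC3-YF held 7, 5 and 3 and FLAG 2, 6 and 4. A region counted for Zbtb20 lies in Tigit, and a region counted for 2900026A02Rik lies in Tmem211.

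Lama4, a laminin chain, Pde4d, a phosphodiesterase, Foxp1, a forkhead factor, Tenm4 and Cdh13, adhesion proteins of the cell surface, had 7 each. At day 13 the HDAC3-YF list held 2, 0, 1, 1 and 0 of the regions of these 5 genes, in that order, against 3, 0, 2, 3 and 3 in FLAG. Btg2, an antiproliferative gene, and Aldh3a1, an aldehyde dehydrogenase abundant in the cornea, are 2 of the 7 genes with 6. Aldh3a1 (chr11:61208510-61218418) had no ESC and no MEF interval in its whole window, and HDAC3-YF held 5, 5 and 1 of its regions at days 5, 9 and 13, against 4, 5 and 2 in FLAG. The highest scores in its window over these days were 49.6, 46.1 and 9.00 in HDAC3-YF, against 44.8, 47.9 and 15.8 in FLAG. Of these, 49.6, 46.1 and 47.9 belong to a region inside Aldh3a2 (chr11:61225454-61225806). The 44.8 and 15.8 belong to a region in no gene, 5.60 kb from Aldh3a1. Some of the regions at 2900026A02Rik, Lama4, Pde4d, Tenm4, Btg2 and Aldh3a1 lay within 1 kb of each other, and these are not independent.

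In lists of genes for cell states, 17 of 126 genes (13.5%) had a transient region, beside 10.5% of all protein-coding genes. Klf4 and Myc, which held transient regions, were in none of these lists. Among the 17 was 1 of the 16 pluripotency genes. That gene was Pou5f1, which encodes OCT4: the region (chr17:35500606-35500920) lay 5.27 kb from it, had no overlapping HDAC3-YF interval, and scored 46.9 at day 5 and 6.89 at day 9 in FLAG. Epithelial genes had 4 of 18, namely Krt8, Krt18, Grhl2 and Ovol1, and epidermal genes 2 of 10, Trp63 and Sfn. Inside Krt8, a keratin of simple epithelia, a region (chr15:102003032-102003542) was in all 6 lists and scored 24.2, 20.6 and 7.63 over the 3 days in HDAC3-YF, against 10.5, 13.2 and 6.84 in FLAG. The Krt18 region is also 1 of the 4 counted for Krt8, another 2 of which lie in Krt78. The region counted for Grhl2 lies in Ncald and that for Sfn in Zdhhc18.

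Fibroblast genes had 4 of 16, Fbn1, Zeb1, Zeb2 and Runx1. The Runx1 gene, a transcription factor locus with 12 MEF intervals and 1 ESC interval, held 2 regions. One (chr16:92680152-92680514) scored 30.0 in HDAC3-YF and 23.3 in FLAG at day 5, and 18.1 in HDAC3-YF and 27.7 in FLAG at day 9, and was in neither day 13 list. The Zeb1 region and those of Fbn1 scored at most 13.1. Among the neural genes, Nes, Neurog2 and Nrcam had transient regions. The region nearest Nes (chr3:87982706-87983159), an intermediate filament of neural progenitors, scored 30.3 and 36.8 in HDAC3-YF at days 5 and 9, against 24.7 and 19.9 in FLAG. No day 13 interval overlapped it, but a day 13 FLAG interval centre lay within 1 kb. The region at Neurog2, a proneural factor, scored 9.62 and 10.8 in HDAC3-YF at days 5 and 13 and 7.14 in FLAG at day 9.

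Of the co-repressor genes, Hdac3 had a transient region. This region (chr18:37941171-37941383, inside the gene) scored 21.0 at day 5 and 7.26 at day 13 in HDAC3-YF and had no overlapping FLAG interval; the HDAC3-YF cultures carry an introduced HDAC3 sequence, and reads of the copy and the gene cannot be told apart. None of the 15 AP-1 and stress genes, 8 MYC and growth genes, 9 blood and endothelial genes, 5 mesendoderm genes, 7 primitive endoderm genes and 8 trophoblast genes had a transient region in this window. The list of MYC and growth genes does not hold Myc itself.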

How the data were processed

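Mouse ChIP-seq interval lists of 12 of 13 libraries, 1 per group, were used as deposited by the authors. Reads were aligned with Bowtie2 2.2.0 to mm10 and intervals called with MACS 1.4, per the submitters' processing notes; not given in the sources used here are settings, read depth and how intervals were brought to 200 bp. Each deposited interval has a score whose scale is not stated. Scores of region classes were also read as percentiles within a list. Scores of named regions are given as deposited, and the lists differ in median score. Intervals were merged at 1 bp overlap with Python 3.11.15, numpy 2.4.6 and pandas 2.3.3, and the code was tested on simulated lists. Distances are between centres, to genes and promoter windows of RefSeq GRCm38.p6; distances to start sites leave out chromosome 18. Shares have 95% Wilson intervals, differences between classes Newcombe intervals, and differences of HDAC3-YF minus FLAG intervals from the regions in only 1 list. Named are the 10 regions in all 6 lists with the highest lowest score, up to 5 regions in 1 arm only, in both arms of 1 day only, or with both day 9 co-repressors, the 10 genes with most regions, and every listed gene with a region; Dll1, Lgals7, Trak1, Lenep and Copg2 were named after their values were seen. Results for some genes under this rule are not reported here. The regions, gene lists and motifs were chosen with earlier results of these data known. Alternatives were stricter lists, equal list lengths, joining, more lists, other windows, and, added after seeing the data, presence by centre, choice on other days, and leaving out day 13 or chromosome 8.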

Additional observations from a re-analysis of the deposited data

Results flagged for a closer look

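The share of transient regions held by the HDAC3-YF list minus that held by the FLAG list came to 6.70 percentage points on day 5, -14.0 on day 9 and -17.8 on day 13, so that the sign at day 5 was opposite to that at the later days. With equal list lengths the day 5 value was 2.15 (-0.436 to 4.75), an interval that holds 0. With 1 library per group the difference between days was not tested. At Zbtb20 the number of transient regions held in HDAC3-YF minus FLAG came to 2 on day 5, -6 on day 9 and -2 on day 13, which was not tested. With presence by centre within 1 kb, HDAC3-YF held 10 and FLAG 9 of them at day 5. Over all intervals in the Zbtb20 window the day 5 counts were 18 in HDAC3-YF and 20 in FLAG. At 2900026A02Rik the differences in regions held were 5, -1 and -1, which was not tested either. Its day 5 counts in HDAC3-YF and FLAG were 8 and 4 by centre, and 10 and 8 over all intervals.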

How the results depend on the processing

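No paired analysis was possible because the groups compared, HDAC3-YF and FLAG of the same day, held 1 library each. A fit that takes the 3 days as pairs was not run. The planned motif shares at the regions, and their alternative of a wider window, were not run, since no genome was used here; promoter windows took their place. With the higher-scoring 50% of each list, 272 regions were left, with HDAC3-YF minus FLAG of 11.0 points at day 5 and -23.2 at day 9, 6.62% near a gene end, 3.68% and 2.94% near a day 9 and an ESC co-repressor interval, and 2 listed genes. With equal list lengths the differences were 2.15 at day 5 and -10.1 at day 9, and 11 listed genes had a region. Joining intervals within 1 kb gave 9.36 at day 5 and -11.1 at day 9. With 3 or more lists, 1086 regions were left, with -26.3 at day 13, 2.58% near a day 9 co-repressor interval and 6 listed genes. Windows of 2.5 kb put 13.1% near a gene end, and direct overlap put 0.865% and 1.05% at day 9 and ESC co-repressor intervals. Without the day 13 lists 5.36% were near a gene end. Presence by centre gave -20.8 at day 13, and regions chosen on the other days gave 3.61, -10.5 and -13.1 at days 5, 9 and 13. The cause of these shifts was not tested. The other 33 of 57 values stayed within the 95% interval of the value reported, or within 1.5 times it for counts, and no alternative turned a direction. Read depth limits how far absence from a list can be read as absence of the mark.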
